A study of Rattus norvegicus with 24 samples.

Results

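The 31 genes described here make cholesterol, switch its synthesis on or off, and move it into, through and out of cells. They were taken by symbol from a list of the pathway's genes; the rule uses no measured value, but the list was drawn up with earlier results of these data known. All 31 were among the 20318 features of the table, and all 31 were among the 16119 features that were abundant enough to test. The levels are those of 24 hippocampal RNA libraries of female rats that were 6 months old at surgery. In the group named OVX_E2_Prevention (Prevention below, n = 5) the ovaries were removed and estradiol (E2), the main ovarian estrogen, was given for 5 weeks. In OVX_E2_Treatment (Treatment below, n = 5) ovariectomised rats received vehicle for 3 weeks and then E2 for 2 weeks. OVX rats (n = 7) were ovariectomised and received vehicle for 7 weeks, and SHAM rats (n = 7) kept their ovaries through a sham operation and also received vehicle for 7 weeks. The stated weeks sum to 5 in both E2 groups and to 7 in both vehicle groups, and the sources used here do not state the dose or route of E2. Each E2 group therefore differs from OVX in more than 1 respect, and the effect of E2 and that of the 2 further weeks cannot be told apart.

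The brain makes its own cholesterol, because lipoproteins of the blood do not cross the blood-brain barrier; in the adult, astrocytes supply much of what neurons use. Acetyl-CoA is built into mevalonate and isoprenoid units, these are joined to squalene, squalene is closed to lanosterol, and a series of late enzymes trims lanosterol to cholesterol. When sterols are low in the endoplasmic reticulum, the escort protein SCAP carries SREBP proteins to the Golgi, where they are cut free and switch on genes of synthesis and uptake; when sterols are high, INSIG proteins hold SCAP back. Surplus cholesterol leaves cells through ABC transporters that liver X receptors switch on, is stored as ester, or is hydroxylated in neurons to a form that can leave the brain.

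Promoters are shown for Insig1 and Idi1, which passed in a comparison below. Those of Tm7sf2 and Npc2 are also shown, which passed in 0 and were among the 3 members of smallest p in OVX against SHAM. All come from the RefSeq table of build GRCr8, which holds 26 of the 31. Pmvk, Fdft1, Sqle, Stard4 and Abcg1 have no entry. Each is the 250 bases before the annotated start, 5′ to 3′ on the gene's strand, which is the minus strand for all 4. The capitals mark CCAAT boxes on either strand (CCAAT or ATTGG), the site of the factor NF-Y that works beside SREBP at many sterol genes, and the palindrome CACGTG, an E-box that SREBP can also bind. The first is at chr4:8057770-8058019, the second at chr17:66547525-66547774, the third at chr1:212789542-212789791 and the fourth at chr6:110149246-110149495.
Insig1: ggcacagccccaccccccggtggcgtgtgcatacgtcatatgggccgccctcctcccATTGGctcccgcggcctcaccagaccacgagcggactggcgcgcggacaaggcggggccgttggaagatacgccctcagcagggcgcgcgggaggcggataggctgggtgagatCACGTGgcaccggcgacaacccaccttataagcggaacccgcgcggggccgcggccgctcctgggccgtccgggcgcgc
Idi1: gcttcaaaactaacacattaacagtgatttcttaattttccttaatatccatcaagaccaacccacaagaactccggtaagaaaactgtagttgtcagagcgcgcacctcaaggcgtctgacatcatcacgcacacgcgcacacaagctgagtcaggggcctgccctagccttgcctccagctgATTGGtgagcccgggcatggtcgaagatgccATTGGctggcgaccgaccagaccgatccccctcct
Tm7sf2: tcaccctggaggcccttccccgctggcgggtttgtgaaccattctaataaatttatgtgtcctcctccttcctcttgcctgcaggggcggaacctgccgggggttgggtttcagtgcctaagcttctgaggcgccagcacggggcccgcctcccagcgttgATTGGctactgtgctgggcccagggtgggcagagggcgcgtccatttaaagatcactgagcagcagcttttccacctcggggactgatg
Npc2: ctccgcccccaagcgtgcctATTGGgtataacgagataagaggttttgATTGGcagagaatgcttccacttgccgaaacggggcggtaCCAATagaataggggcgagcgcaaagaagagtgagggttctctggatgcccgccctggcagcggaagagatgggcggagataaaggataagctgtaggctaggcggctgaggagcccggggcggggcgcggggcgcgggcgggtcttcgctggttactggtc
A CCAAT box stood in 19 of the 26 member promoters (73.1%), against 34.3% of all 27457 promoters of the table. GC boxes (GGGCGG on either strand), which bind the factor Sp1, were in 23 of 26 (88.5%), against 32.4% of all promoters. CACGTG was in 4 of 26 (15.4%), those of Sc5d, Insig1, Scap and Abca1, against 5.79% of all. The sterol regulatory element was searched on both strands as TCACNCCAC, which was in 0 of 26 member promoters and 0.976% of all promoters. Its shortened form TCACNCCA, which every match of the longer form also holds, was in those of Msmo1 and Srebf2 (7.69%), against 3.25% of all. The full estrogen response element, GGTCA and TGACC with 3 bases of any kind between them, was in 0 of 26 member promoters and 0.0219% of all. These are matches of letters in windows of 250 bases and say nothing about binding. The 27457 promoters were not filtered by expression, while all 26 members were abundant enough to test. The part of that difference was not tested.

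Levels are the authors' normalised counts, in arbitrary units that are not scaled for transcript length, so they are compared between libraries and not between genes. Column totals ran from 35.4 to 38.8 M, and the reads behind them were estimated at 26.5 to 53.5 M a library. The markers of hippocampal neurons were present in every group: 8 of 10 reached the level set for testing, Camk2a lay at 48612 or more in every library, and Tdo2 and Lct had medians of 0 and 6.08. Markers of neighbouring tissue varied more between libraries. The mean log2 level of 10 thalamic markers ran 8.37 to 10.5 in Prevention, 8.08 to 10.3 in Treatment, 8.12 to 10.3 in OVX and 8.21 to 10.6 in SHAM, and 5 libraries exceeded 10: Prevention 1 and 4, Treatment 6, OVX 2 and SHAM 5. That of the choroid plexus markers found in the table ran 5.91 to 10.9 in Prevention, 5.04 to 10.7 in Treatment, 5.35 to 10.7 in OVX and 5.09 to 11.8 in SHAM. The libraries also fall into a pair of sets by 1 feature, LOC257642, which had a log2 level of 16.8 to 19.7 in 7 libraries and of 14.0 to 15.2 in the other 17. The 7 are all 5 Prevention libraries and Treatment 1 and 2, so the set can be separated from Prevention only through Treatment, which has 2 libraries among the 7 and 3 among the 17. Estimated reads were 39.6 to 53.5 M in the 7 and 26.5 to 40.1 M in the 17.

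In hippocampi given E2 from the start, transcripts of Insig1, the brake on SREBP activation, and of Fdft1, squalene synthase, were higher than after ovariectomy with vehicle, by 1.29-fold for Insig1 and 1.14-fold for Fdft1. These 2 of the 31 members passed the test in Prevention against OVX (limma, adjusted p under 0.05 over all features), where 0.304% of all features passed in either direction. In Treatment against OVX 0 members passed, and 0.00% of all features did. With both E2 groups set against OVX in 1 contrast, Fdft1 passed, with a background of 0.0310%. Below that threshold more members leaned upward than downward. Changes were positive for 20 of 31 members in Prevention against OVX, 22 in Treatment against OVX and 20 over both E2 groups against OVX, where 50.2%, 49.4% and 49.2% of all features had positive changes. At an unadjusted p under 0.05, 12 members were higher and 2 lower in Prevention against OVX (10.1% and 8.56% of all features). Without Prevention 2 these counts were 6 and 3, with the library set as a term 3 and 1, and without Prevention 4 or OVX 7 4 members were lower. Of all 16119 features, 3006 had such a p in either direction with all libraries. Without Prevention 2 the number was 2630, with the set term 573, without Prevention 4 2836 and without OVX 7 3356. In Treatment against OVX 8 were higher and 2 lower (4.10% and 3.09% of all features), and over both E2 groups 11 were higher and 2 lower (9.23% and 7.03%). In Treatment 6 were higher without Treatment 2 or 5 or OVX 2 or 7 and with the set term, and 11 without OVX 4. There 1 was lower without Treatment 2 or OVX 3 and with the set term, and 3 without Treatment 5 or OVX 7. Of all features 1159 had such a p with all libraries, and 562 to 1554 in these fits. Over both E2 groups 7 members were higher without OVX 2 and 4 with the set term (1972 and 558 of all features in either direction, against 2621). All libraries of the E2 group exceeded all OVX libraries for 1 member in Prevention, Stard4, and for 2 in Treatment, Fdft1 and Stard4, as they did for 1.20% and 0.161% of all features. The 31 changes had a median of 0.071 on the log2 scale in Prevention against OVX and of 0.060 in Treatment against OVX, and the medians over all features tested were 0.00081 and −0.0016. The first fell to 0.046 without OVX 2, and the second to 0.026 without Treatment 6 and 0.037 without Treatment 5. Every change here and below is a difference of mean log2(normalised count + 1). The E2 groups are set against the same OVX libraries, so their values are given side by side and not as separate support. In whole tissue, fewer cells of a type and less RNA per cell cannot be told apart. In Prevention against OVX, 7 of 8 tested markers of hippocampal neurons had positive changes (median 0.11), with 9 of 10 thalamic and 9 of 9 choroid plexus markers. So had 5 of 10 markers of astrocytes, 3 of 10 of oligodendrocytes, 4 of 10 of microglia and 4 of 8 of endothelium. The neuronal markers had 4 of 8 in Treatment against OVX (median 0.027) and 2 of 8 in OVX against SHAM (median −0.083). Their part was not tested.

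**Figure D1:**
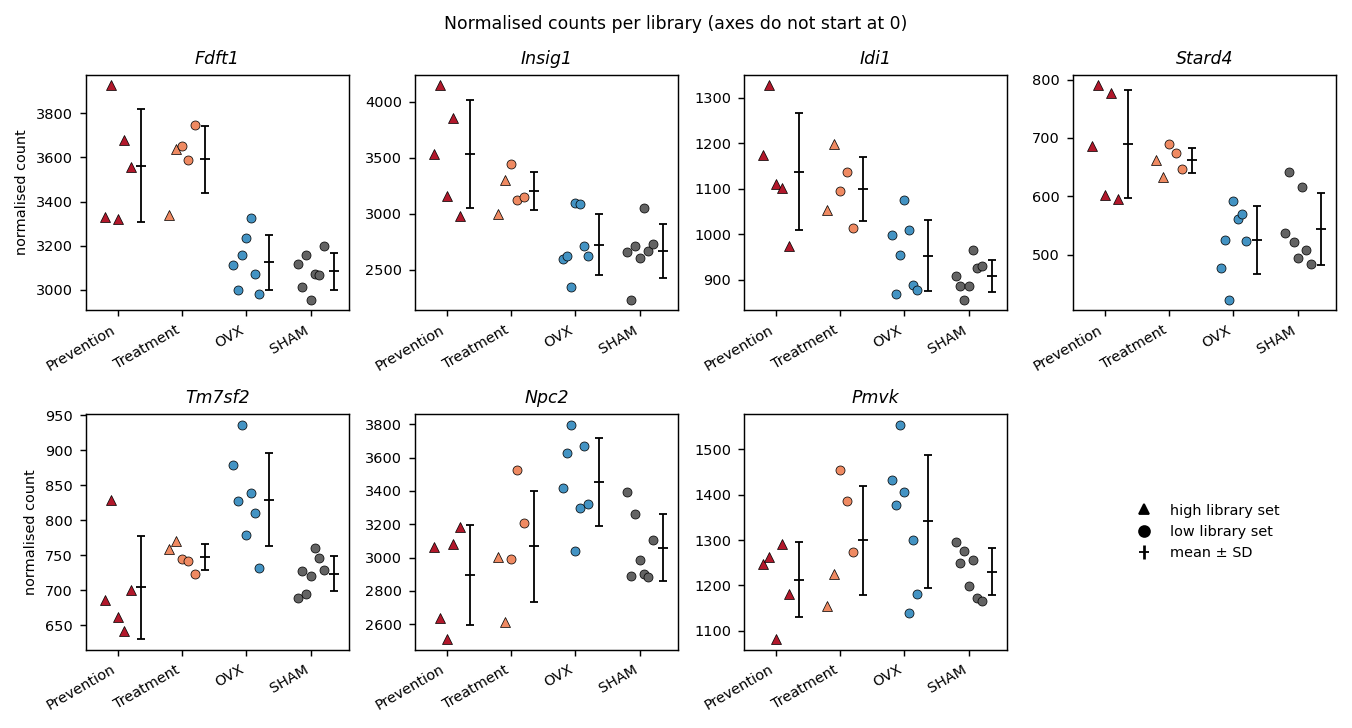
Normalised counts (vertical axes, arbitrary units) of 7 members in the 24 libraries, 1 panel a gene, with groups in the order Prevention, Treatment, OVX and SHAM; points are libraries, triangles those 7 with a high LOC257642 level, and bars the group mean ± SD. For Fdft1, 9 of the 10 E2 libraries lie above all OVX and SHAM libraries, and for Stard4 all 10 lie above all OVX libraries.

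Of the 7 enzymes of early synthesis, from acetyl-CoA to farnesyl diphosphate, 1 passed in any comparison. Idi1, the isomerase that converts isopentenyl diphosphate to its reactive partner, had 1173, 1327, 1111, 1101 and 973 normalised counts in Prevention and 1053, 1197, 1095, 1136 and 1014 in Treatment. It had 867 at the lowest, 955 at the median and 1076 at the highest in OVX and 856 at the lowest, 907 at the median and 966 at the highest in SHAM. All 10 E2 libraries lay above every SHAM library, and 7 of the 10 above every OVX library. Its change was 0.32 in Prevention against SHAM (SE 0.065, limma adjusted p = 0.0297) and 0.27 in Treatment against SHAM (SE 0.065, adjusted p = 0.231). Against OVX it was 0.25 in Prevention (adjusted p = 0.0651) and 0.21 in Treatment (adjusted p = 0.602), neither of which passed. RefSeq names a pseudogene of Idi1, whose reads the quantification could have shared with it.

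Hmgcs1, the cytosolic HMG-CoA synthase that begins the sterol branch, averaged 10781 ± 685 in Prevention, 10925 ± 562 in Treatment, 9852 ± 695 in OVX and 9549 ± 391 in SHAM (SD, n = 5, 5, 7 and 7, as for all means below). All 5 Treatment libraries and 4 of 5 Prevention libraries lay above every SHAM library, while its changes against OVX, 0.13 in Prevention and 0.15 in Treatment, did not pass (adjusted p = 0.166 and 0.619, limma). Pmvk, phosphomevalonate kinase, leaned the other way: it had 1247, 1262, 1082, 1292 and 1182 in Prevention and 1156, 1226, 1455, 1385 and 1274 in Treatment. It had 1139 at the lowest, 1376 at the median and 1554 at the highest in OVX, and 1166 at the lowest, 1249 at the median and 1296 at the highest in SHAM. The groups overlapped, and its change was −0.14 in Prevention against OVX (adjusted p = 0.275) and 0.12 in OVX against SHAM (adjusted p = 0.812). With a term for the library set the first of these was 0.062. The other 4 early enzymes stayed within −0.13 and 0.11 in the comparisons of either E2 group with OVX: Mvk, mevalonate kinase; Mvd, the decarboxylase that yields isopentenyl diphosphate; Fdps, farnesyl diphosphate synthase; and Acat2, the thiolase that joins acetyl-CoA units. Fdps has 5 pseudogenes in RefSeq and Acat2 3 named copies, so their levels are uncertain.

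Fdft1 passed in 3 of the 7 comparisons, more than any other member. This enzyme, which commits farnesyl diphosphate to sterols, had 3330.4, 3927, 3319.5, 3681 and 3558 normalised counts in Prevention and 3339.8, 3636, 3652, 3588 and 3746 in Treatment. It had 2982 at the lowest, 3110.3 at the median and 3324 at the highest in OVX and 2955 at the lowest, 3071 at the median and 3201 at the highest in SHAM. All 5 Treatment libraries and 4 of 5 Prevention libraries exceeded every OVX library, and all 10 exceeded every SHAM library. Its change was 0.19 in Prevention against OVX (SE 0.041, limma adjusted p = 0.0481) and 0.21 in Prevention against SHAM (SE 0.041, adjusted p = 0.0272). It was 0.20 in Treatment against OVX (SE 0.041, adjusted p = 0.317), which did not pass. Over both E2 groups against OVX it was 0.19 (SE 0.035, adjusted p = 0.0448). The 3 Treatment libraries of the lower set, against the OVX libraries, all of which are in that set, gave 0.23 (adjusted p = 0.180).

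Sqle, squalene epoxidase and a rate-limiting step, averaged 2736 ± 152 in Prevention, 2823 ± 195 in Treatment, 2595 ± 204 in OVX and 2465 ± 144 in SHAM (SD), with changes against OVX of 0.079 in Prevention and 0.12 in Treatment, neither of which passed. Lss, which closes the ring to lanosterol, averaged 3567 ± 558 in Prevention, 3096 ± 379 in Treatment, 3593 ± 467 in OVX and 3432 ± 604 in SHAM. Its changes against OVX were −0.014 in Prevention and −0.21 in Treatment, and its 95% interval in Treatment, −0.45 to 0.022, holds 0.

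**Figure D2:**
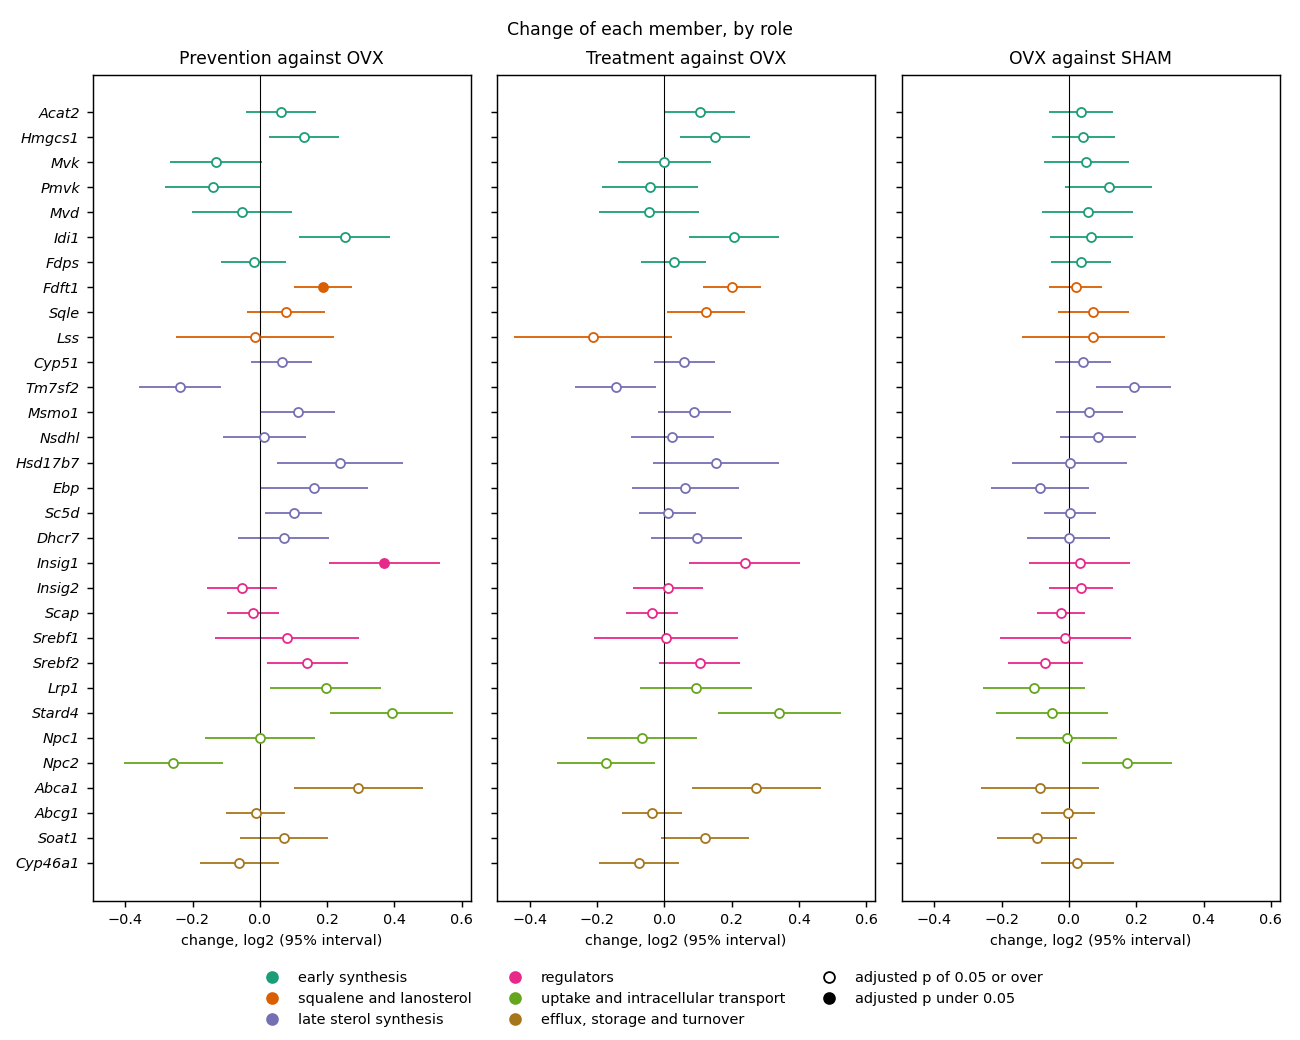
Change on the log2(normalised count + 1) scale (horizontal axis) of the 31 members in Prevention against OVX, Treatment against OVX and OVX against SHAM, with 95% confidence intervals, ordered down the page by role. Insig1, Stard4, Idi1, Fdft1 and Abca1 lie above 0 in both E2 comparisons. Tm7sf2 and Npc2 lie below 0 in both and above 0 in OVX against SHAM, as do Pmvk, Mvd, Lss and Cyp46a1.

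Among the 8 late enzymes of sterol synthesis 0 passed in any of the 7 comparisons, and 7 of 8 changes were positive in both Prevention and Treatment against OVX. The exception was Tm7sf2, a sterol reductase of the endoplasmic reticulum and nuclear envelope. It had 687, 829.3, 661, 643 and 701 in Prevention and 759, 771, 745, 742 and 723 in Treatment. It had 732 at the lowest, 828 at the median and 937 at the highest in OVX and 689.8 at the lowest, 728 at the median and 760.0 at the highest in SHAM. Of the OVX libraries 6 of 7 exceeded every SHAM library, and 4 of 5 Prevention and 1 of 5 Treatment libraries lay below every OVX library, while Prevention 2 lay above the OVX median and the groups overlapped. Its change was 0.19 in OVX against SHAM (unadjusted p = 0.00154, limma adjusted p = 0.795), the smallest p of the members in that comparison. It was −0.24 in Prevention against OVX (adjusted p = 0.0622) and −0.14 in Treatment against OVX (adjusted p = 0.679).

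Of the other late enzymes, Msmo1, the methylsterol monooxygenase, averaged 4168 ± 358 in Prevention, 4090.1 ± 254 in Treatment, 3848 ± 277 in OVX and 3683 ± 88.3 in SHAM (SD), and all 5 Prevention libraries lay above every SHAM library. Its change was 0.17 in Prevention against SHAM (adjusted p = 0.138, limma) and 0.11 in Prevention against OVX (adjusted p = 0.248). Hsd17b7, a ketosteroid reductase that also converts estrone to estradiol, varied most of all members, with a highest library at 1.98 times the lowest. It averaged 548 ± 93.7 in Prevention, 512 ± 31.3 in Treatment, 463 ± 58.4 in OVX and 459.9 ± 24.8 in SHAM, with changes of 0.24 in Prevention (adjusted p = 0.164) and 0.15 in Treatment (adjusted p = 0.719) against OVX. Ebp, the sterol isomerase, had a difference of 0.16, and Sc5d, the sterol desaturase, of 0.10 in Prevention against OVX, with unadjusted p of 0.0470 and 0.0228 (limma) and no adjusted p under the threshold. Cyp51, the lanosterol demethylase, Nsdhl, a dehydrogenase of the demethylation steps for which RefSeq names 1 pseudogene, and Dhcr7, the last reductase before cholesterol, had changes of 0.013 to 0.10 in either E2 group against OVX.

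The regulators were Insig1 and Insig2, Scap, and the SREBP genes Srebf1 and Srebf2. Insig1 had 3531, 4149, 3159, 3855 and 2979 normalised counts in Prevention and 3004, 3300.2, 3448, 3127 and 3153 in Treatment. It had 2345 at the lowest, 2626 at the median and 3095 at the highest in OVX and 2235 at the lowest, 2666 at the median and 3054 at the highest in SHAM. In each E2 group 4 of 5 libraries exceeded every OVX and every SHAM library, and the remaining 1 of each group fell within the vehicle range. Its change was 0.37 in Prevention against OVX (SE 0.080, limma adjusted p = 0.0404) and 0.40 in Prevention against SHAM (SE 0.080, adjusted p = 0.0259). It was 0.24 in Treatment against OVX (SE 0.080, adjusted p = 0.619) and −0.13 in Treatment against Prevention (95% interval −0.31 to 0.046, adjusted p = 0.952). It averaged 2727 ± 274 in OVX and 2666 ± 240.3 in SHAM (SD), with a difference of 0.031 (adjusted p = 0.968, limma).

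Insig2, which shares the function of Insig1, had a difference of −0.052 in Prevention and 0.010 in Treatment against OVX. Scap was the steadiest member, with its highest library at 1.17 times its lowest, and its changes were −0.019 and −0.036 in the same order. Srebf2, whose product drives the cholesterol genes, averaged 12624 ± 805 in Prevention, 12298 ± 598 in Treatment, 11457 ± 889 in OVX and 12027 ± 892 in SHAM (SD). Its change in Prevention against OVX was 0.14 (unadjusted p = 0.0245, limma adjusted p = 0.198). Srebf1, which acts more on fatty acid genes, had a difference of 0.081 with an SE of 0.10, the largest SE of the regulators, and OVX 3 had 3208 where the other OVX libraries had 4537 to 5664.

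**Figure D3:**
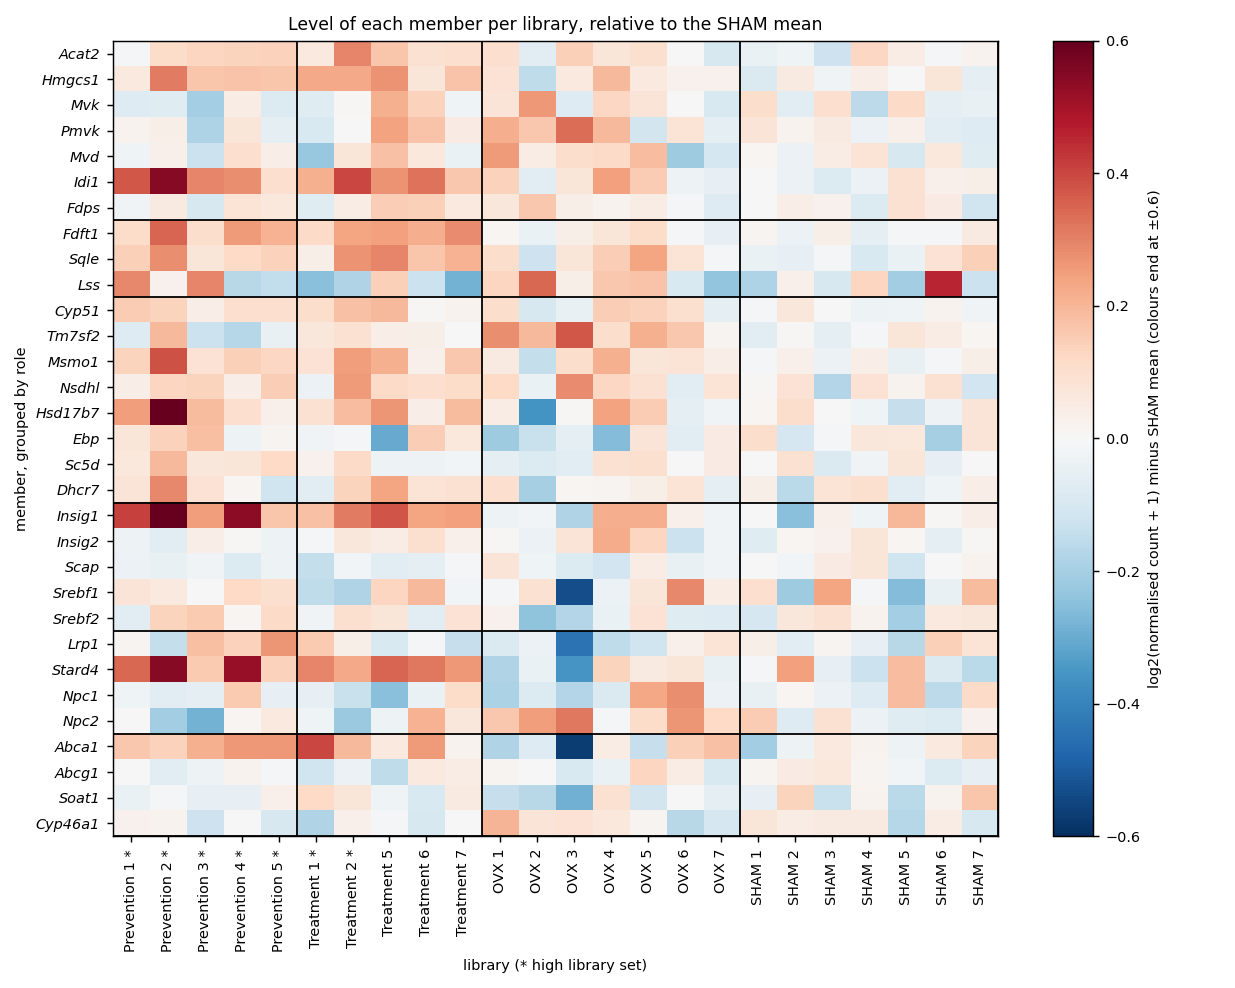
Log2 level of each of the 31 members (rows, grouped by role) in each of the 24 libraries (columns, by group), shown in colour as the difference from the gene's mean over the SHAM libraries on the log2 scale; an asterisk marks the 7 libraries with a high LOC257642 level. Prevention 2 holds the highest value of 9 members and OVX 2 the lowest of 7. OVX 3 holds the highest of 4, Pmvk, Tm7sf2, Nsdhl and Npc2. It also holds the lowest of 5, Srebf1, Lrp1, Stard4, Abca1 and Soat1.

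For uptake and transport within the cell, the clearest values were those of Stard4, a soluble sterol carrier between membranes that SREBP also regulates. It had 686, 790.2, 603, 777 and 595 in Prevention and 662, 634, 690.1, 674 and 647 in Treatment. It had 423 at the lowest, 525.9 at the median and 592 at the highest in OVX and 484 at the lowest, 523 at the median and 643 at the highest in SHAM. All 10 E2 libraries exceeded every OVX library, a pattern that 0.0434% of all features showed in that direction, and 7 of the 10 also exceeded every SHAM library. Its change was 0.39 in Prevention against OVX (SE 0.088, limma adjusted p = 0.0510), 0.34 in Treatment against OVX (SE 0.088, adjusted p = 0.514) and 0.37 over both (SE 0.074, adjusted p = 0.0614). It was the largest change among the members in all 3 of these comparisons but did not pass in any.

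Npc2, the lysosomal protein that hands cholesterol to NPC1, had 3062, 2639.8, 2511, 3083 and 3181 in Prevention and 3000.4, 2615, 2993, 3525 and 3205 in Treatment. It had 3037 at the lowest, 3419 at the median and 3798 at the highest in OVX and 2886 at the lowest, 2984 at the median and 3394 at the highest in SHAM. By group mean Npc2 was highest in OVX, where 4 of 7 libraries exceeded every SHAM library. Tm7sf2, Pmvk, Mvd, Lss, Cyp46a1 and, narrowly, Mvk also had their highest group mean in OVX. The change of Npc2 was −0.26 in Prevention against OVX (adjusted p = 0.0748, limma), −0.17 in Treatment against OVX (adjusted p = 0.684) and 0.17 in OVX against SHAM (unadjusted p = 0.0134). With the library set as a term the first was −0.050. Its membrane partner Npc1 averaged 3008 ± 199 in Prevention, 2879 ± 265 in Treatment, 3026 ± 413 in OVX and 3027 ± 249 in SHAM (SD), with differences from OVX of 0.00017 in Prevention and −0.066 in Treatment. Lrp1, a large receptor for lipoproteins, had a difference of 0.20 in Prevention against OVX (unadjusted p = 0.0227, adjusted p = 0.191, limma) and of 0.094 in Treatment against OVX.

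Of the 4 genes of efflux, storage and turnover, Abca1, the transporter that loads cholesterol onto lipoproteins, averaged 3447 ± 136 in Prevention, 3413 ± 368 in Treatment, 2848 ± 465 in OVX and 2992 ± 219 in SHAM (SD). Its 5 Prevention libraries all lay above the SHAM libraries, and 3 of 5 in each E2 group lay above every OVX library. Its change against OVX was 0.29 in Prevention (SE 0.093, limma adjusted p = 0.103) and 0.27 in Treatment (SE 0.093, adjusted p = 0.619). Abcg1, the transporter that works with it, had a difference of −0.013 and −0.037 in the same order, with an SE of 0.043. Soat1, which esterifies cholesterol for storage, had a difference of 0.073 and 0.12. Cyp46a1, the hydroxylase by which neurons dispose of cholesterol, had a difference of −0.060 and −0.076, and its 95% intervals were −0.18 to 0.058 and −0.19 to 0.042.

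In Prevention against SHAM 3 members rose, Insig1, Fdft1 and Idi1, where 0.354% of all features passed; 21 of 31 changes were positive (50.9% of all features), and at an unadjusted p under 0.05 11 were higher and 0 lower (7.42% and 5.85%), or 7 higher without Prevention 2 and 5 with the library set as a term. Of all features 2139 had such a p in either direction with all libraries, 1691 without Prevention 2 and 774 with the set term. Libraries of the groups did not overlap for Idi1, Fdft1, Msmo1 and Abca1, each higher in Prevention; 1.57% of all features were separated in that direction. In Treatment against SHAM 0 members passed (0.00620% of all features) and 22 changes were positive (51.6%). At an unadjusted p under 0.05 9 were higher and 0 lower (3.29% and 2.80% of all features), and Hmgcs1, Idi1 and Fdft1 did not overlap (0.292% of all features). These comparisons use E2 rats without ovaries and vehicle rats with them.

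Between OVX and SHAM, which differ in the ovaries and both received vehicle, 0 members passed in limma, as did 0.00% of all features, and at an unadjusted p under 0.05 2 were higher, Tm7sf2 and Npc2, and 0 lower (2.88% and 3.37% of all features). The groups did not separate for any member (0.0186% of all features were separated and higher). The 31 changes, 20 of them positive (51.7% of all features), ran from −0.10 to 0.19 with a median of 0.031, which was 0.011 without OVX 4. Without OVX 2 4 members were higher at an unadjusted p under 0.05, and 795 of all features had such a p in either direction (1007 with all libraries). All 7 early enzymes and all 3 of squalene and lanosterol had positive changes, of 0.019 to 0.12. In Treatment against Prevention 0 members passed (0.00% of all features), 0 had an unadjusted p under 0.05 (2.76% of all features were higher and 2.62% lower), and 0 were separated and higher (0.546%). The changes, 14 positive (48.9% of all features), ran from −0.20 to 0.13 with a median of −0.015, and the median ran from −0.026 to 0.013 with single libraries left out. For Fdft1 the difference between the E2 groups was 0.014 with a 95% interval of −0.079 to 0.11, for Stard4 −0.051 with −0.25 to 0.15, and for Idi1 −0.044 with −0.19 to 0.10. These intervals leave room for differences as large as several of the changes against OVX.

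Because every Prevention library belongs to the set of 7, each Prevention result was also fitted with the set as a term, which then rests on the 2 Treatment libraries of that set. In that fit 0 members passed in Prevention against OVX, as did 0 of all features. The change of Fdft1 was 0.26 (SE 0.076, unadjusted p = 0.00248, limma adjusted p = 0.999), that of Insig1 0.41 (SE 0.15) and that of Stard4 0.44 (SE 0.17). That of Idi1 was 0.20 (SE 0.12, unadjusted p = 0.120, limma). Within the lower set alone, Treatment against OVX gave 0.25 for Insig1, 0.36 for Stard4, 0.19 for Idi1, −0.17 for Tm7sf2, −0.091 for Npc2 (−0.17 with all libraries) and 0.037 for Pmvk (−0.044 with all libraries). Within the set of 7, Treatment against Prevention compared 2 libraries with 5, and 0 members passed, as did 0 of all features. The calls also moved with single libraries: the 2 calls in Prevention against OVX became 0 without any 1 of Prevention 1, 3 or 4, OVX 1, 2, 3 or 6, or SHAM 1, 4, 6 or 7, and Insig1 alone passed without Treatment 2, 5 or 7 or SHAM 3. Without Prevention 2 both were lost and Tm7sf2 passed, lower in Prevention. The member calls reached 5 without OVX 7 and 6 without OVX 4. Of all 16119 features, 49 passed with all libraries, and 1 to 42 where the members fell to 0. Where Insig1 alone passed 48 to 54 did, and 18 did without Prevention 2. Without OVX 7 the count was 481, and without OVX 4 it was 168. The 3 calls in Prevention against SHAM became 0 without Prevention 2 or 4 or SHAM 1, 4 or 6, and 1 without Prevention 1. Of all features 57 passed there with all libraries, 10 to 19 where the members fell to 0, and 14 without Prevention 1. The call over both E2 groups was lost without any 1 of Prevention 1, 2 or 4, Treatment 2, 5 or 7, OVX 1, 2, 3 or 6, or SHAM 1, 2, 4, 6 or 7, and 3 members passed without OVX 4 and 4 without Prevention 5. Of all features 5 passed there with all libraries, 0 or 1 where the call was lost, 20 without OVX 4 and 23 without Prevention 5. In Treatment against SHAM Fdft1 passed without Prevention 2 or Treatment 1, where 5 and 4 of all features passed, against 1 with all libraries. Without the 5 libraries of high thalamic score 0 members passed in Prevention against OVX, in Prevention against SHAM and over both E2 groups against OVX, as did 0 of all features. The changes in that fit were 0.19 for Fdft1 and 0.31 for Insig1 in Prevention against OVX, and 0.33 for Idi1 in Prevention against SHAM. The part that the set and the choroid plexus score have in these results was not tested beyond these fits.

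**Figure D4:**
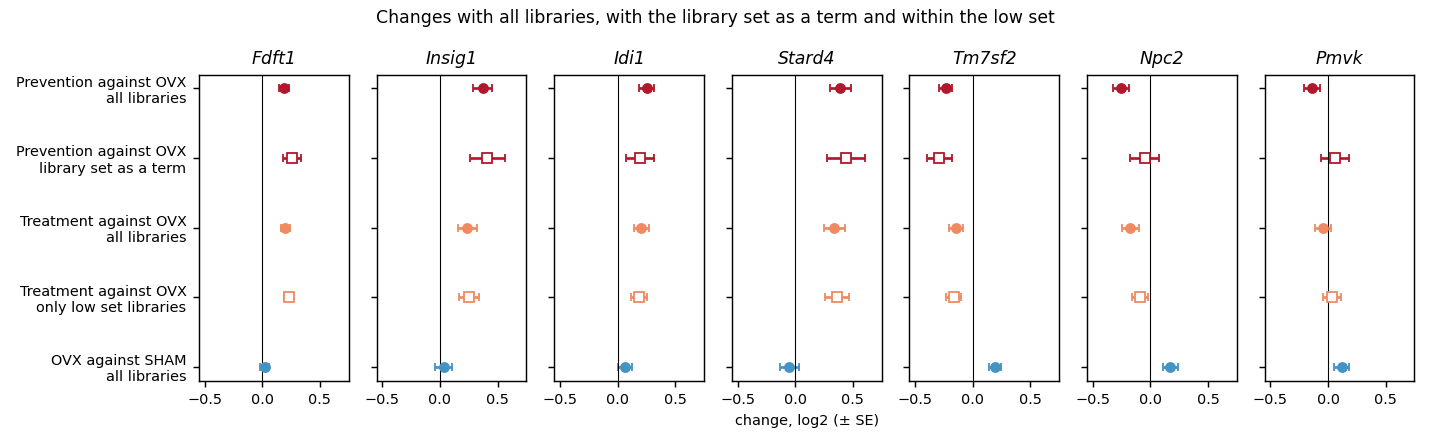
Change on the log2 scale (horizontal axis, ± SE) of the 7 named members, 1 panel a gene, in Prevention against OVX with all libraries and with the library set as a term, in Treatment against OVX with all libraries and with the lower set alone, and in OVX against SHAM. Fdft1, Insig1, Idi1 and Stard4 lie above 0 in all 4 estradiol fits, while Pmvk in Prevention against OVX lies at 0.062 with the set as a term and at −0.14 without it. With the set as a term the change of Idi1 is 0.20 with an SE of 0.12.

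A further 30 genes of the sterol pathway outside the members were listed for context, and 29 could be tested. In each of the 7 comparisons 0 of these passed; at an unadjusted p under 0.05, 7 were higher and 2 lower in Prevention against OVX (10.1% and 8.56% of all features), and 1 was higher and 0 lower in Treatment against OVX (4.10% and 3.09%). Gramd1b, which carries cholesterol from the plasma membrane inward, had a difference of 0.091 (SE 0.049, adjusted p = 0.709) in Treatment against OVX and of −0.088 (SE 0.045, adjusted p = 0.797) in OVX against SHAM.

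The 11 fatty acid genes that SREBP proteins also switch on were all tested, and 0 passed in any comparison. In Prevention against OVX all 11 changes were positive, with a median of 0.11, against 50.2% of all features; Fasn, fatty acid synthase, had a difference of 0.13 (SE 0.050, adjusted p = 0.167) and Acaca, acetyl-CoA carboxylase, of 0.14 (SE 0.059, adjusted p = 0.192). In Treatment against OVX 10 of 11 were positive, with a median of 0.058, against 49.4% of all features, among them Elovl6, a fatty acid elongase, at 0.16 (SE 0.075, adjusted p = 0.690) and Lpin1, a phosphatidate phosphatase, at 0.12 (SE 0.064, adjusted p = 0.706). In OVX against SHAM all 11 were negative, with a median of −0.054, against 48.3% of all features, and Acaca had a difference of −0.12 (SE 0.054, adjusted p = 0.795). These 11 ran from −0.12 to −0.00020, and 1 had an unadjusted p under 0.05. The OVX libraries enter all 3 of these comparisons. For Fasn the OVX libraries had a lowest value of 13512 and a median of 16706. Its medians were 18205 in Prevention, 16706 in Treatment and 16986 in SHAM. The counts of these 11 genes were not repeated with single libraries left out or the library set as a term.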

How the data were processed

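Hippocampal RNA of 24 female rat samples was sequenced; per the labels' protocols it was extracted with TRIzol and PureLink columns and treated with DNase, and libraries followed Illumina protocols. The submitters' processing notes name kallisto 0.43 and DESeq2, without a version, while the build and annotation were not given in the sources used here. What the authors deposited are normalised counts, a signal in arbitrary units for each gene and library. Reads were estimated as the column total over the lowest step of a library. Because read counts are not given, precision rests on the spread between libraries. No label says that the libraries of a group are separate animals, so p-values measure only the spread between these samples.

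The analysis used limma 3.58.1 under R 4.3.3, on log2(normalised count + 1). Features with a mean of at least 10 were tested, 16119 of 20318, in 1 fit of all 24 libraries with a mean for each group, a mean-variance trend, 7 two-sided contrasts, Benjamini-Hochberg adjustment over all features and a threshold of 0.05. Values in every library are given for members past the threshold in any contrast and for the 3 with the smallest p in Prevention against OVX, Treatment against OVX and OVX against SHAM. Of the lists for context, counts are given with the genes of smallest p, of which some are not reported here. Members and lists were chosen with earlier results of these data known. Alternatives were another pseudocount, filter, scaling, weights, robust fit, covariates, the library set, a replicate block and leaving out each library; leaving out the libraries with thalamic markers was chosen after seeing the data. Promoters come from RefSeq, build GRCr8. Plots were made with matplotlib 3.10.9 under Python 3.11.15.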

Additional observations from a re-analysis of the deposited data

Results flagged for a closer look

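Of 124 sets of values (31 members in 4 groups), 4 held a library far from the others of its group by Dixon's test, where chance gives about 1 in 20. Acat2, the cytosolic thiolase, was low in Prevention 1 at 1355 normalised counts, where the other Prevention libraries had 1470.5 to 1502. Msmo1, the methylsterol monooxygenase, was high in Prevention 2 at 4800.4, where the others had 3916 to 4072. Srebf1, which codes for SREBP-1, was low in OVX 3 at 3208, where the other OVX libraries had 4537 to 5664. Npc1, the lysosomal cholesterol exporter, was high in Prevention 4 at 3360.2, where the others had 2886 to 2966.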

How the results depend on the processing

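The 13 pairs of named gene and comparison were fitted under 500 alternatives in all: 393 kept direction and side of the threshold, 96 kept the direction and lost the call, 11 kept it and gained one, and 0 turned round. The pairs were picked from these same data by threshold or smallest p. Leaving out a library of a group outside the comparison cannot move a change. The 0 is therefore no evidence that directions hold. Outside the 13, Pmvk in Prevention against OVX turned from −0.14 to 0.062 with the set term. In Prevention against OVX, the 2 members that passed became 0 with no filter on low values, upper-quartile scaling, only the groups of the comparison, array weights, the replicate block, the library set as a term and the thalamic libraries left out (chosen after seeing the data), 1 with quantile normalisation (Stard4 in place of both) and 1 with a robust fit (Insig1), 6 with the choroid plexus score as a covariate and 7 with the thalamic score as a covariate. With a mean of at least 100 the count in Prevention against OVX was 3, with Stard4 added, and 97 of all features passed. In Prevention against SHAM, 3 became 0 with the replicate block, the set term and the thalamic libraries left out, and 5 with the thalamic covariate. There 4 passed with array weights (Stard4 added) and with the choroid plexus covariate (Hmgcs1 added). Over both estradiol groups against OVX, 1 became 0 with no filter, only the groups of the comparison, array weights, the replicate block, the set term and the thalamic libraries left out, 2 with a mean of at least 100 and with quantile normalisation, and 7 with the thalamic covariate. In Treatment against SHAM, 0 became 1, Fdft1, with quantile normalisation and with array weights. Of all features 3 and 11 passed in these fits, against 1 with the processing described above. The causes were not tested. Over all features 49 passed in Prevention against OVX, against 269 with the choroid plexus covariate and 618 with the thalamic covariate. The count was 38 with no filter, 46 with upper-quartile scaling, 39 with array weights and 5 with only the groups of the comparison. With quantile normalisation it was 56 and with a robust fit 45. It was 3 with the replicate block and 0 with the set term or the thalamic libraries left out. In Prevention against SHAM 57 passed, against 4 with the block, 0 in the latter 2 fits and 149 with the thalamic covariate. With array weights 424 passed there, and 129 with the choroid plexus covariate. Over both estradiol groups against OVX 5 passed, against 0 or 1 where the call was lost and 182 with the thalamic covariate. There 13 passed with a mean of at least 100 and 10 with quantile normalisation. With single libraries left out, member counts ran from 0 to 6 in Prevention against OVX, 0 to 4 in Prevention against SHAM, 0 to 1 in Treatment against SHAM, 0 to 4 over both estradiol groups against OVX, and were 0 in the other 3 comparisons. Over all features the first 4 ran from 1 to 481, 10 to 153, 1 to 5 and 0 to 34.

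Pairing by replicate number was not seen in the values. The deviations of 8 of 30 same-numbered pairs correlated by more than 0.1, and 3 of 24 libraries correlated best with their own number. The median correlation was −0.12 in same-numbered pairs and 0.035 in other pairs between groups. Such correlations cannot settle the design, because carry-over of other tissue can also enter them. The lowest value of any member was 289 normalised counts, that of Ebp in Treatment 5.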
